A study of Rattus norvegicus with 36 samples.

Results

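In the dorsal striatum of rats given cocaine on every day of a binge schedule (Coc–Coc), 54 of the 32402 gene IDs in the count tables met a rule for a shift away from both other groups. Of these, 21 were higher and 33 were lower in Coc–Coc than in rats given saline only (Sal–Sal) and in rats that met cocaine on the last day alone (Sal–Coc). The shifts were small, with a median smaller difference of 1.30-fold in the higher genes and 1.28-fold in the lower genes. Expression was counted as RNA-seq reads per gene. CPM is a gene's count per 1000000 counts of its pool, and differences are of log2(CPM + 0.5), which understates the change of low genes. The members were chosen by their values in these same 9 pools: a gene was taken if its mean was at least 1 CPM over the pools, if all 3 Coc–Coc pools lay above or below all 6 other pools, if the mean of Coc–Coc differed from each other group by at least 0.3 on that scale (1.23-fold), and if the pools of the other two groups overlapped.

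All rats were male Sprague-Dawley rats aged 8 weeks, and the labels name no genetic change in any group. Per the labels, Sal–Sal had 15 saline injections, Sal–Coc had 13 saline and 3 cocaine injections, and Coc–Coc had 15 cocaine injections. The injections of Sal–Coc thus add up to more than those of the other groups, which the labels leave unexplained. Each group had 3 pools, numbered 5, 6 and 7, each joined from a pair of rats killed a day after the last injection, and each pool was present as 4 technical replicates. The sample labels name the dorsal striatum, whereas the extraction protocol speaks of both nucleus accumbens and caudate putamen.

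The dorsal striatum is the part of the basal ganglia that shapes movement and habit, and most of its neurons are GABAergic projection neurons that carry dopamine receptors. Cocaine blocks the dopamine transporter, so dopamine released from midbrain axons stays longer outside the cell. Repeated exposure is known to change the motor response to the drug, and striatal gene expression after repeated doses is often compared with that after a first exposure. The rule describes that contrast at the level of RNA: genes for which the pools of the single cocaine day overlapped the saline pools, while those of repeated cocaine stood outside both.

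The count files do not pair their Ensembl IDs with gene names, and 0 of the 32402 IDs were found in the RefSeq tables used here. The members are therefore described by number and level, and only the 2 leading IDs in each direction are given. For the same reason the labelled tissue could not be checked against its marker genes, no other cell type's markers could be set beside the members, and no sequence is shown. In bulk tissue, fewer cells of a type and less RNA per cell cannot be told apart, and this holds for every difference given here.

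Pool totals ran from 29870775 to 39493867 counts, so that 1 CPM stood for 29.9 to 39.5 counts. Of the 32402 IDs, 23352 had a count in any pool and 13986 had a mean of at least 1 CPM. Coc–Coc was the group whose pools differed most among themselves: over those 13986 genes the median SD of log2(CPM + 0.5) was 0.15 in Coc–Coc, 0.091 in Sal–Sal and 0.099 in Sal–Coc. Coc–Coc pool 5 was the Coc–Coc pool farthest from the mean of the 6 other pools in 55.4% of the 13986 genes.

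Few of the expressed genes had pools that stood apart. Among the 13986 genes, all 3 Coc–Coc pools lay above the 6 others in 79 (0.565%) and below them in 286 (2.04%). Of these 365 genes, 302 had overlapping Sal–Sal and Sal–Coc pools. The size condition then left the 21 higher genes, which are 0.15% of the 13986, and the 33 lower genes, which are 0.236%. These shares are set by the rule and support nothing about the genes. The same rule turned to the other groups took more genes, with 160 set apart in Sal–Sal (144 higher and 16 lower) and 115 set apart in Sal–Coc (19 higher and 96 lower). With TMM sizes, a scaling chosen for these groups after seeing the data, Sal–Sal had 83 higher and 33 lower and Sal–Coc 32 higher and 91 lower. DESeq2 size factors gave 84 and 33 for Sal–Sal and 33 and 91 for Sal–Coc, and upper-quartile sizes gave 87 and 30, and 29 and 93. No test was made of these counts.

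The split by direction depended on how pools were scaled. With CPM by pool total, 38.9% of the genes that met the rule were higher in Coc–Coc. With effective library sizes from TMM scaling, which corrects the totals for differences in their make-up, 28 genes were higher and 23 lower, so that 54.9% were higher. DESeq2 size factors gave 25 higher and 23 lower, and upper-quartile sizes gave 27 higher and 23 lower. Among these 4 scalings the lower genes were thus the larger set by pool total only. By total scaling, the median difference of Coc–Coc over all 13986 genes was -0.03 from Sal–Sal and 0.015 from Sal–Coc. Relative to the mean of the 6 other pools, the median deviation was 0.039, -0.058 and -0.014 in Coc–Coc pools 5, 6 and 7. Of the 54 members, 36 met the rule under all 3 other scalings, 16 of them higher and 20 lower.

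**Figure D1:**
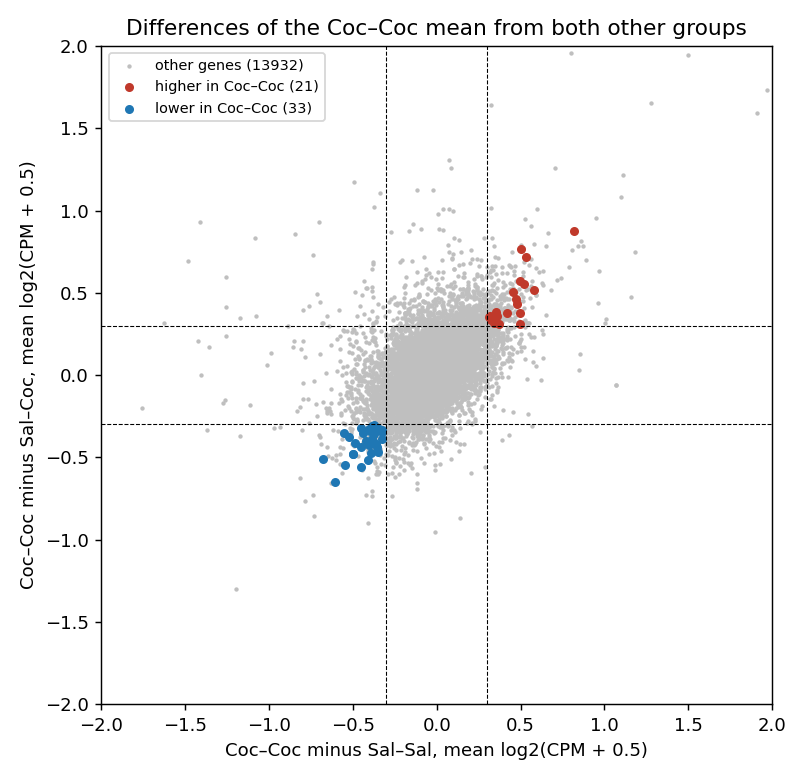
Difference of the Coc–Coc mean from Sal–Sal (horizontal) and from Sal–Coc (vertical), in log2(CPM + 0.5), for the 13986 genes at a mean of 1 CPM or more. Dashed lines mark 0.3 in each direction. The 21 higher members lie at top right and the 33 lower members at bottom left, among grey points with differences as large that missed another condition. 1 gene lies beyond the axes.

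Size of difference alone did not separate the members from other genes. Among genes whose Sal–Sal and Sal–Coc pools overlapped, 214 further ones were at least 0.3 higher in Coc–Coc than in both other groups. A further 96 were at least 0.3 lower. In each of these genes, at least 1 Coc–Coc pool did not lie beyond all the other pools on that side. The smaller of the 2 differences of a member ran from 0.31 to 0.82 in the higher genes, with a median of 0.38, and from 0.30 to 0.61 in size in the lower genes, with a median of 0.36. It was at least 0.5 in 5 higher and 3 lower members and reached 1 in 0 of 54. The difference of Coc–Coc from Sal–Sal had a median of 0.46 in the higher and -0.40 in the lower genes. That from Sal–Coc had a median of 0.38 and -0.39. Both differences share the Coc–Coc pools, so they are given side by side and not as separate evidence.

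Sal–Coc and Sal–Sal, which the rule required to overlap, lay near each other in the members. Sal–Coc minus Sal–Sal ran from -0.26 to 0.19 in the higher genes, with a median of -0.012, and from -0.20 to 0.12 in the lower genes, with a median of -0.018. The other pool nearest to Coc–Coc was a Sal–Sal pool in 23 members and a Sal–Coc pool in 31.

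The higher gene with the largest smaller difference was ENSRNOG00000015768. Its level in pools 5, 6 and 7 was 2.67, 2.95 and 3.80 CPM for Sal–Sal, 2.65, 2.74 and 3.60 CPM for Sal–Coc, and 11.2, 4.07 and 4.32 CPM for Coc–Coc. Pool 5 of Coc–Coc stood far above every other pool, while pools 6 and 7 of Coc–Coc were only a little above pool 7 of each other group. Coc–Coc averaged 6.54 ± 4.07 CPM (SD, n = 3), beside 3.14 ± 0.59 CPM for Sal–Sal and 2.99 ± 0.52 CPM for Sal–Coc. On the log2(CPM + 0.5) scale Coc–Coc was 0.82 above Sal–Sal and 0.88 above Sal–Coc. Without pool 5 of Coc–Coc these differences of ENSRNOG00000015768 were 0.38 and 0.44.

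ENSRNOG00000011478 was the second of the higher genes. In the order of pools 5, 6 and 7, Sal–Sal had 1.58, 2.34 and 1.50 CPM, Sal–Coc had 2.24, 1.05 and 1.39 CPM, and Coc–Coc had 3.34, 2.49 and 2.60 CPM. The highest saline-only pool reached 2.34 CPM against 2.49 CPM in the lowest Coc–Coc pool, a gap of 0.075 in log2(CPM + 0.5). These 2 pools rested on 80 and 98 reads, and their exact Poisson 95% intervals, 1.86 to 2.91 CPM and 2.02 to 3.04 CPM, overlapped. The differences of the ENSRNOG00000011478 means were 0.53 from Sal–Sal and 0.72 from Sal–Coc, and 0.42 and 0.61 without pool 5 of Coc–Coc.

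Among the lower genes, ENSRNOG00000002911 had the largest smaller difference. The pools of Sal–Sal had 8.44, 9.54 and 8.84 CPM, those of Sal–Coc 7.97, 13.5 and 7.16 CPM, and those of Coc–Coc 4.33, 6.46 and 6.54 CPM. Pool 5 of Coc–Coc was lowest, and pool 6 of Sal–Coc stood above all others. The mean of Coc–Coc was 5.77 ± 1.25 CPM (SD, n = 3), against 8.94 ± 0.55 CPM for Sal–Sal and 9.54 ± 3.45 CPM for Sal–Coc. The differences of the log2 means of ENSRNOG00000002911 were -0.61 from Sal–Sal and -0.65 from Sal–Coc, and -0.43 and -0.47 without pool 5 of Coc–Coc. Without pool 6 of Sal–Coc, the difference of ENSRNOG00000002911 from Sal–Coc was -0.38.

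ENSRNOG00000019592 followed it, and its Coc–Coc pools had 3.95, 4.98 and 6.18 CPM, while those of Sal–Sal had 7.54, 7.28 and 7.59 CPM and those of Sal–Coc 6.36, 8.74 and 7.49 CPM. The Coc–Coc pools of this gene were spread over a wide range, and pool 7 came within 0.038 of Sal–Coc pool 5 on the log2 scale. The differences of the ENSRNOG00000019592 means were -0.55 from Sal–Sal and -0.55 from Sal–Coc. They were -0.40 from each without pool 5 of Coc–Coc.

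**Figure D2:**
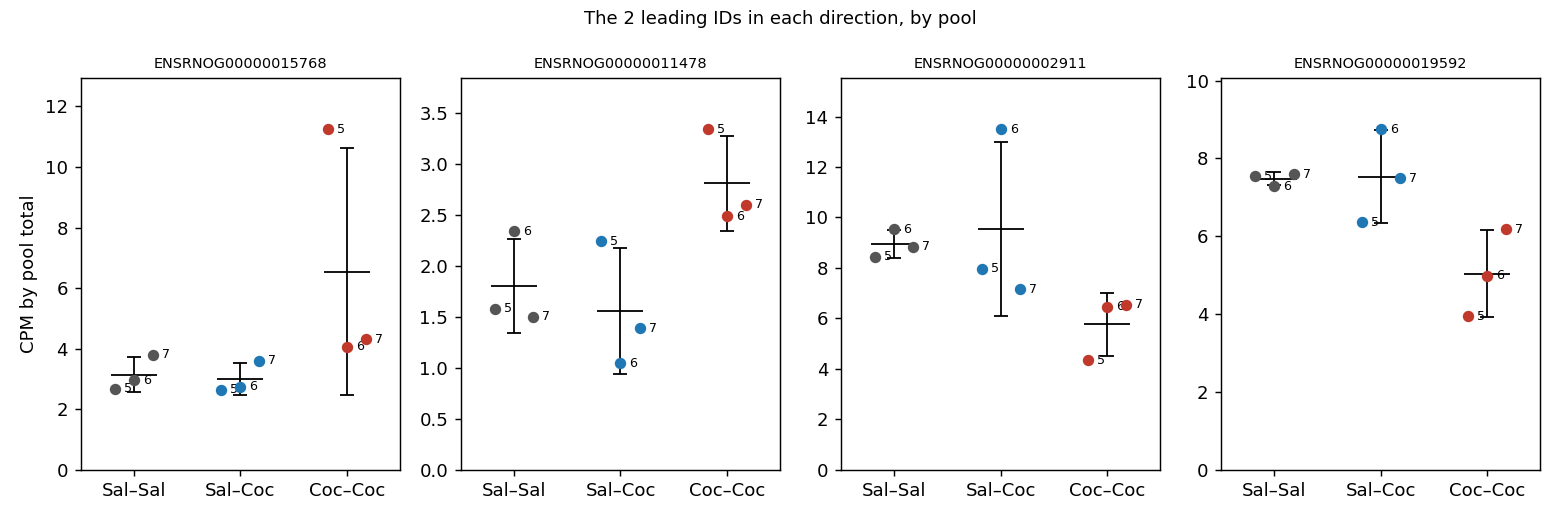
CPM by pool total of the 2 leading higher IDs (ENSRNOG00000015768, ENSRNOG00000011478) and the 2 leading lower IDs (ENSRNOG00000002911, ENSRNOG00000019592). Points are pools, labelled 5, 6 and 7, horizontal bars are group means and error bars are SD (n = 3). In all 4, Coc–Coc pool 5 is the pool of its group farthest from the other groups, up to 11.2 CPM in ENSRNOG00000015768.

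The most abundant member was lower in Coc–Coc. Its Coc–Coc pools 5, 6 and 7 stood at 117, 155 and 139 CPM, whereas the Sal–Sal pools ran from 169 to 184 CPM and the Sal–Coc pools from 161 to 184 CPM, on 4604 to 6302 reads a pool. Its Coc–Coc mean of 137 ± 19.3 CPM compared with 177 ± 7.47 CPM for Sal–Sal and 169 ± 12.5 CPM for Sal–Coc (SD, n = 3). The most abundant higher member had 54.3, 49.4 and 45.2 CPM in the Coc–Coc pools, above the Sal–Sal range of 35.6 to 43.8 CPM and the Sal–Coc range of 38.3 to 40.5 CPM. In both genes pool 5 of Coc–Coc was again the farthest out.

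Some members had even pools instead. The higher gene with the widest gap to its nearest other pool, 0.26 on the log2 scale, had 14.5, 12.9 and 13.9 CPM in the Coc–Coc pools. Its Sal–Sal pools had 10.3, 10.4 and 9.72 CPM and its Sal–Coc pools 10.4, 10.4 and 10.7 CPM, so these 6 lay close together. Its differences were 0.42 from Sal–Sal and 0.38 from Sal–Coc, and the smaller one was 0.34 without pool 5. The SD of its pools was 0.38 CPM for Sal–Sal, 0.18 CPM for Sal–Coc and 0.84 CPM for Coc–Coc. It met the rule by pool total but under 0 of the 3 other scalings. Under those, its Sal–Sal and Sal–Coc pools no longer overlapped, while its Coc–Coc pools still stood above both.

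Over all members, the 3 Coc–Coc pools stood out to unequal extents. Relative to the mean of the 6 other pools, the median deviation of the higher genes was 0.54 in pool 5, 0.31 in pool 6 and 0.40 in pool 7 of Coc–Coc. In the lower genes it was -0.51, -0.40 and -0.33. The median deviation of the other 6 pools lay between -0.035 and 0.058 in the higher and between -0.043 and 0.037 in the lower genes.

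**Figure D3:**
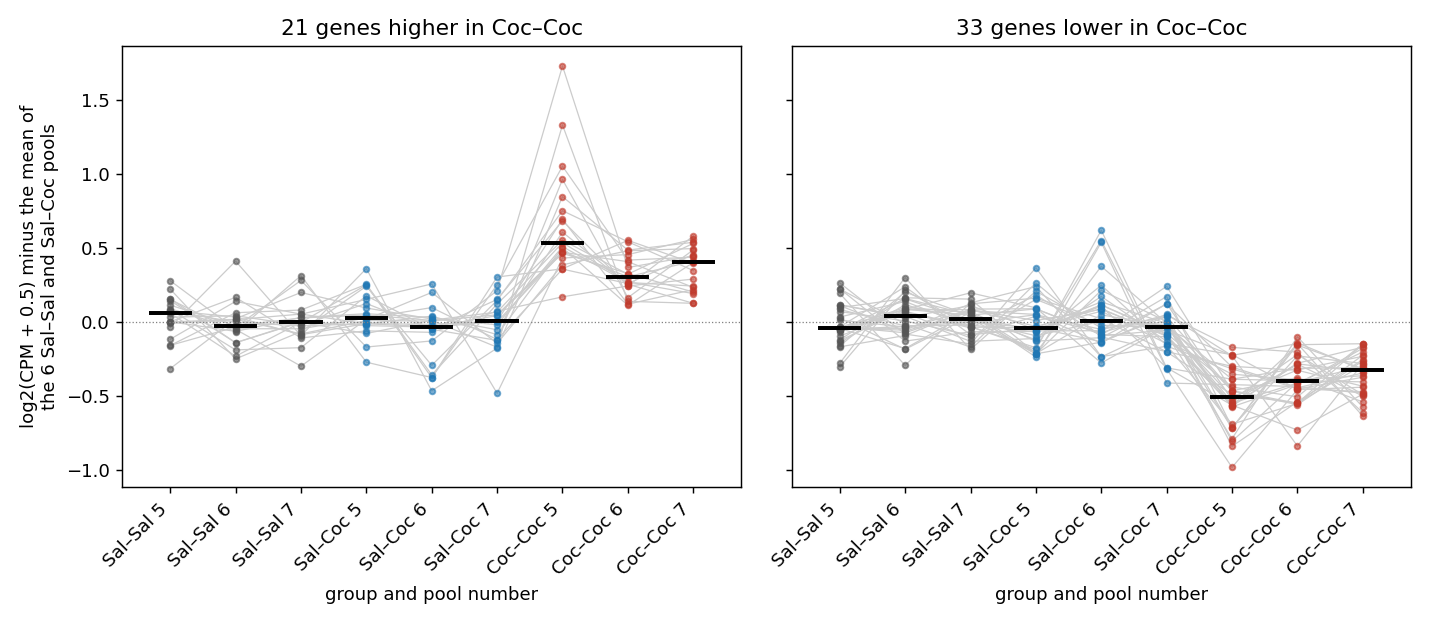
Each member's log2(CPM + 0.5) in each pool, relative to the mean of the 6 Sal–Sal and Sal–Coc pools, for the 21 higher genes (left) and the 33 lower genes (right). Points joined by a grey line are 1 gene and black bars are medians over the genes. The medians of Coc–Coc pools 5, 6 and 7 are 0.54, 0.31 and 0.40 on the left and -0.51, -0.40 and -0.33 on the right, and pool 5 has the widest scatter on the left.

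Coc–Coc pool 5 was the farthest out of its group in 33 of the 54 members, 16 of 21 higher and 17 of 33 lower. That is 61.1% of members, beside the 55.4% of all 13986 genes in which the same pool was farthest. The SD of Coc–Coc was the largest of the 3 groups in 29 members, or 53.7%, beside 57.2% of all genes. Without pool 5 of Coc–Coc, 37 of the 54 members still met the rule, 12 higher and 25 lower, and the smaller difference fell under 0.3 in the other 9 higher and 8 lower genes. The rule, now easier to meet because fewer pools had to stand apart, then took 34 higher and 73 lower genes. Without pool 6 of Coc–Coc it took 203 higher and 108 lower genes, and without pool 7 it took 75 higher and 218 lower, with 49 of the 54 members among them each time. By pool total, pool 6 thus limited the number of higher genes most and pool 7 the number of lower genes. The rule was not rerun without a pool under the other scalings.

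**Figure D4:**
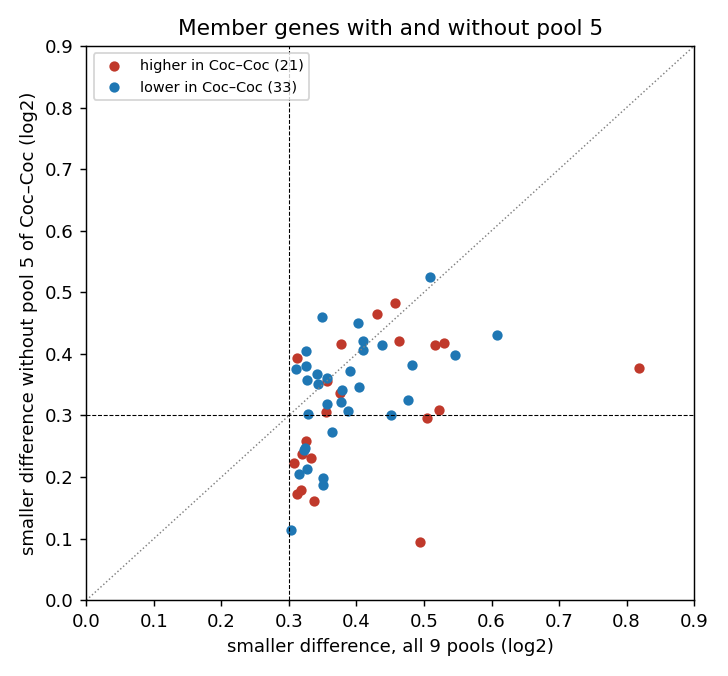
Smaller of the 2 differences of Coc–Coc from Sal–Sal and Sal–Coc, as its size in log2(CPM + 0.5), with all 9 pools (horizontal) and without Coc–Coc pool 5 (vertical), for the 54 members. The dashed lines mark 0.3 and the dotted line marks equal values. 9 higher and 8 lower genes fall under the horizontal line.

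The members were low to moderate in level. Their mean ran from 1.04 to 161 CPM with a median of 6.43 CPM, beside a median of 23.2 CPM over all 13986 genes. Of the 54 members, 23 (42.6%) had a mean of 1 to 5 CPM, as did 18.6% of all genes, and 23 (42.6%) one of 5 to 20 CPM, as did 27.3% of all genes. Only 8 members (14.8%) reached 20 CPM, 1 of them higher and 7 lower, beside 54.0% of all genes. The same counts chose the members, and how the rule's thresholds act at each level was not tested. Nothing is therefore read from this difference in level. Reads per member and pool ran from 18 to 6302.

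**Figure D5:**
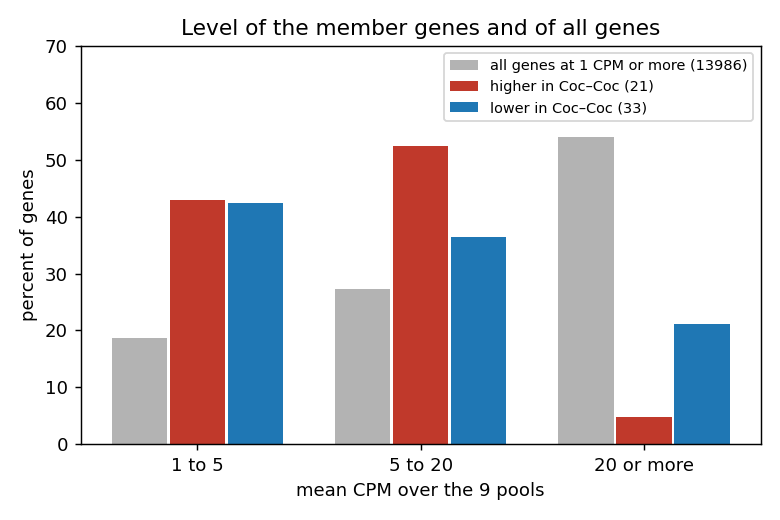
Percent of all 13986 genes at a mean of 1 CPM or more (grey), of the 21 higher members (red) and of the 33 lower members (blue) in 3 classes of mean CPM over the 9 pools. The class of 20 CPM or more holds 54.0% of all genes, 4.76% of the higher and 21.2% of the lower members.

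The members' pools were separated by narrow gaps. The gap between the nearest Coc–Coc pool and the nearest other pool had a median of 0.069 in both directions, from 0.0035 to 0.26 in the higher and from 0.0075 to 0.19 in the lower genes. In 0 of 54 members were the exact Poisson 95% intervals of these 2 pools apart. With the reads of each group added up, the interval of Coc–Coc was apart from those of both other groups in 20 of 21 higher and 31 of 33 lower members. These intervals cover counting error only. The same reads chose the members and no share over all genes is given, so nothing is read from these interval counts. The technical replicates of a pool varied as counts do, with a chi-square per degree of freedom of 0.968 on average over the members and 1.02 over all genes.

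Single technical replicates, with 7317172 to 9992159 reads each, mostly gave other genes. Technical replicate a alone gave 40 higher and 53 lower genes with 12 of the 54 members among them, b gave 33 and 58 with 16, c gave 35 and 41 with 19, and d gave 28 and 52 with 18. The Coc–Coc pools stood apart in all 4 technical replicates in 4 members, in 3 of them in 6, in 2 in 12, in 1 in 24 and in 0 in 8. The technical replicates are the same RNA as the sums that chose the members, so these counts are no independent repeat.

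The members closest to the thresholds were separated from the genes just outside by little. The smallest difference that was taken was 0.31 in the higher and 0.30 in the lower genes, and the next gene that met all else stood at 0.28 in each. The narrowest gap taken was 0.0035 in the higher and 0.0075 in the lower genes, and the nearest genes outside, whose pools overlapped, had gaps of -0.0046 and -0.0081. The least abundant member had 1.08 CPM in the higher and 1.04 CPM in the lower genes, and the next genes under the minimum had 0.738 and 0.903 CPM.

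The main test across all genes, by edgeR, gave no call for any comparison, whereas DESeq2 gave some in each. In edgeR's quasi-likelihood test, 0 of 15884 genes (0.0%) had a Benjamini-Hochberg adjusted p under 0.05 in any of the 3 comparisons. For Coc–Coc vs. Sal–Sal, 1141 genes (7.18%) had an unadjusted p under 0.05, among them 47 of the 54 members. Against Sal–Coc, Coc–Coc had 1100 such genes (6.93%), 48 of them members. Between the 2 other groups there were 1265 (7.96%), 0 of them members. Nothing is read from these member counts, since the same pools chose the members. The lowest edgeR adjusted p of a member was 0.465 against Sal–Sal and 0.692 against Sal–Coc. DESeq2 called 24 of 23352 genes (0.103%) for Coc–Coc against Sal–Sal, 2 (0.00856%) against Sal–Coc, and 59 (0.253%) between the 2 other groups. Those 23352 are all genes with a count in any pool, including any left without an adjusted p, unlike the filtered 15884 of edgeR. The members called were 1, 0 and 0, and the 1 was the higher gene with the widest gap described above.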

How the data were processed

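RNA of 9 pools was sequenced as 36 technical replicates. The authors aligned single reads from stranded poly(A) libraries to the Ensembl rat genome with STAR, removed reads with several alignments and deposited raw counts per Ensembl gene, with no normalisation. Submitters' notes also list HTSeq 0.5.3 and bcl2fastq 2.18.0.12. Removing multi-mapped reads lowers counts of genes with near-identical copies. Counts of the 4 technical replicates were summed, so n = 3 pools a group. CPM used pool totals, with a pseudocount of 0.5, in Python 3.11.15 (pandas 2.3.3, scipy 1.17.1).

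Members and lists were chosen with earlier results of these data known, and the rule used all 9 pools, so member values carry no test. IDs named are the 2 with the largest smaller difference in each direction. The fixed gene lists could not be applied without names.

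All 9 pools entered a shared fit of edgeR 4.0.16 in R 4.3.3 (filterByExpr, minimum count 10 and total 15, TMM, two-sided quasi-likelihood F-test). Its p-values judge differences between group means against the spread between pools. DESeq2 1.42.0 was an alternative. Other alternatives were scaling, pseudocount, filters, size threshold, single technical replicates, the pool number as a block and leaving out each pool. Scaling of the rule for the other groups was added after seeing the data. Both the rule and the fit were run on simulated data, with planted changes larger than those of most members. The simulated data for the rule held no counting noise. These runs therefore show nothing about shifts as small as those of most members. Pool numbers do not pair rats, since same-numbered pools are different rats. Deviations of same-numbered pools correlated between -0.193 and 0.156. No different-numbered pools were set beside them, so nothing is read from these values.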

Additional observations from a re-analysis of the deposited data

How the results depend on the processing

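The number of genes that met the rule moved by over 1.5 times with several choices. It was 11 higher and 17 lower with a pseudocount of 2, 12 and 19 with a minimum of 5 CPM, 45 and 81 with a difference of 0.2, and 5 and 3 with one of 0.5. In single technical replicates it was 40 higher and 53 lower in a, 33 and 58 in b, 35 higher in c, and 52 lower in d. Leaving out 1 pool gave 19 to 203 higher and 33 to 218 lower genes. The pools that moved a count by over 1.5 times were Coc–Coc 5, 6 and 7 in both directions (34, 203 and 75 higher, 73, 108 and 218 lower) and Sal–Sal 5 in the higher genes (40). Of the 54 members, 11 met the rule in all 9 of these, 4 higher and 7 lower. The largest loss of members other than with Coc–Coc 5 was without Sal–Coc 6, where 38 of 54 remained. Of the members lost under TMM sizes, 10 of 16 lost the separation of pools. Of 152 recomputed differences of the 4 IDs, 5 moved by at least the SD of Coc–Coc, all of them in ENSRNOG00000011478, whose difference from Sal–Sal was 0.09 in technical replicate d alone. In ENSRNOG00000015768 the SD of Coc–Coc was 0.77. Its difference from Sal–Sal fell from 0.82 to 0.38 without Coc–Coc 5 and so was not counted as moved. The signs of the recomputed differences are fixed by the rule in most of these settings and are no sign of stability.

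Genes called by adjusted p numbered 24 with DESeq2 instead of 0 for Coc–Coc against Sal–Sal, 2 for Coc–Coc against Sal–Coc and 59 for Sal–Coc against Sal–Sal. Without a filter on low counts the first of these comparisons had 2. Leaving out 1 pool gave 0 to 6 calls in Coc–Coc vs. Sal–Sal (4 without Coc–Coc 5 and 6 without Coc–Coc 6) and 0 in the other comparisons. A fit with a replicate block for pool number gave 0 calls in each comparison, with 1079, 1046 and 1129 genes at an unadjusted p under 0.05. The causes were not tested. The intervals of the nearest pools overlapped in all 54 members, while those of the summed groups were apart in 51. They cover counting error only and the same reads chose the members, so nothing about depth is read from them.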
